A study of Mus musculus with 2 samples.

Results

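The 8 genes described here are miRNA genes known from white blood cells: Mir142, Mir142b, Mir223, Mir150, Mir155, Mir146, Mir146b and Mir342. They were taken by their GENCODE M21 symbols from the 2202 miRNA genes measured, and all 8 were found. Mir146 is the name that this annotation gives to the gene of miR-146a. The samples were of the gastrocnemius, a calf muscle, taken from males of the B6CASTF1/J strain at 25 days of age. These mice are the first-generation cross of an inbred laboratory strain with CAST, which is wild-derived. There was 1 group of 2 libraries, numbered replicates 1 and 2, and the labels describe no treatment and no second condition. The males carry separate numbers in the labels but share 1 donor identifier, so the SDs measure only the spread between these samples, which may be technical.

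A miRNA is cut from a hairpin in a longer transcript, and its bases 2 to 8, the seed, pair with messenger RNAs that are then repressed. The genes studied are used as signs of resident or circulating immune cells in a tissue. miR-142 is found in nearly all blood cell lineages and miR-223 mainly in myeloid cells such as neutrophils, and also in platelets. miR-150 is abundant in mature lymphocytes, where it represses the transcription factor Myb. miR-155 is induced when lymphocytes and macrophages are activated. miR-146a is induced through NF-kB and represses Traf6 and Irak1, which carry the same signal, and miR-146b is its close relative in sequence. miR-342 comes from an intron of Evl, a gene for an actin regulator, and is known in B cells and dendritic cells. None of this shows which cells made the RNA in whole muscle, since miR-155, miR-146a and miR-342 are also made by other cells.

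The mature sequences are shown because counts of these genes depend on how well a short read separates them. They come from RefSeq (GRCm38.p6), where all 8 genes had at least 1 mature sequence and 7 had a hairpin, and capitals mark the seed. For Mir150 the table gave miR-150-3p, and miR-150-5p and the hairpin are named only. A gene's counts do not say which arm of the hairpin the reads came from.
miR-142a-5p: cAUAAAGUagaaagcacuacu
miR-142a-3p: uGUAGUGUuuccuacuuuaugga
miR-142b: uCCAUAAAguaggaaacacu
miR-223-3p: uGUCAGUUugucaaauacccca
miR-155-5p: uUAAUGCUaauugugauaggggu
miR-146a-5p: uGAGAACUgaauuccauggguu
miR-146b-5p: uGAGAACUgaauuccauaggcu
miR-342-3p: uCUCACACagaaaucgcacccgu
miR-150-3p: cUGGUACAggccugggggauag

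Of the 14 mature sequences in that table for these genes, miR-146a-5p and miR-146b-5p shared a seed with each other. The remaining 12, miR-150-5p not among them, shared theirs with no miRNA among the 1679 names of the table. Counted from 1 at the 5′ end of miR-146a-5p, its partner differs by G18A and U21C, so that 20 of 22 positions are the same and the longest common stretch is 17 bases. miR-142b is the reverse complement of 20 bases of miR-142a-3p over its whole length of 20 bases, so that only the strand of a read tells them apart. The next lines show this in the hairpins, with the mature sequences in capitals.
Mir142 hairpin, plus strand, chr11:87756864-87756927: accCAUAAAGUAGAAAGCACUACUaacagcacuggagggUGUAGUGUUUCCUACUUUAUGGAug
Mir142b hairpin, minus strand, chr11:87756841-87756955: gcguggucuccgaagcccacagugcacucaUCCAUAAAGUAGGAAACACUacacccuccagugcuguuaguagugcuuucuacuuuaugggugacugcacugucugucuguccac

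The genes lie on 6 chromosomes of the mm10 build. Mir142 (ENSMUSG00000105196.1) lies in an intron of the lincRNA gene Mir142hg on the same strand, and the whole of it is covered by Mir142b (ENSMUSG00000065420.2) on the opposite strand. Mir223 (ENSMUSG00000076066.1, chrX:96242817-96242926, plus strand) lies in an exon of F630028O10Rik, a gene annotated as an antisense transcript that runs on the same strand as Mir223. Mir155 (ENSMUSG00000065397.1, chr16:84714140-84714204, plus strand) lies in an exon of its host lincRNA gene Mir155hg. Mir342 (ENSMUSG00000065436.1, chr12:108658620-108658718, plus strand) lies in an intron of Evl. Mir146b (ENSMUSG00000070127.2, chr19:46342762-46342870, plus strand) lies in an intron of Mfsd13a. Mir150 (ENSMUSG00000065495.1, chr7:45121757-45121821, plus strand) overlaps no other annotated gene. Mir146 (ENSMUSG00000065601.1, chr11:43374397-43374461, minus strand) overlaps none either.

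Reads assigned to miRNA genes came to 1491341 in replicate 1 and to 2028332 in replicate 2, which is 19.9% and 20.6% of all reads. Reads aligned to several loci, 69.8% and 71.8% of all reads, are in no gene row. Levels are given as CPM, the counts of a gene per 1000000 gene counts of its library, and a count of 0 allows up to 3 counts, or 2.01 CPM in replicate 1 and 1.48 CPM in replicate 2. Intervals are exact 95% intervals and cover counting error only. The check of the muscle label rests on Mir206, a skeletal muscle miRNA gene, with 79589 and 94404 counts. Mir499, in a slow myosin gene, had 499 and 1084. Of the 11 striated muscle genes listed, most others had few counts. Since reads aligned to several loci are left out, few counts in a gene row do not show a low level of its miRNA. Mir1a-2 had 660 and 775 counts, and Mir208b had 136 and 454. Mir133a-1 had 18 and 43, Mir133b 18 and 41, Mir1a-1 15 and 23, and Mir208a 5 and 9. Mir133a-2 had 1 and 8, Mir1b 1 and 2, and Mir133c 0 in both libraries. All but Mir206, Mir499 and Mir1a-2 are named after their values were seen.

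Of the 8 genes, 6 were detected, with 299 counts or more in either library, and Mir146b and Mir142b had 2 counts or fewer. Together the genes held 0.412% of gene counts in replicate 1 (interval 0.402 to 0.422) and 0.324% in replicate 2 (0.316 to 0.332), a mean of 0.368 ± 0.0624% (SD, n = 2). Ordered by mean CPM, the detected genes ranked from 63 for Mir150 to 120 for Mir142 among all 2202 genes. Mir150 reached 1011 ± 237 CPM (SD, n = 2), against 49955 ± 4826 CPM for Mir206 and 82900 ± 6540 CPM for Mir126a, the endothelial gene, which ranked 2. Directly above Mir150 in level stood Mir29a at 1033 ± 340 CPM, and the next gene below that is no member was Mir493 at 888 ± 167 CPM. In bulk muscle, fewer cells of a type and less RNA per cell cannot be told apart.

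**Figure D1:**
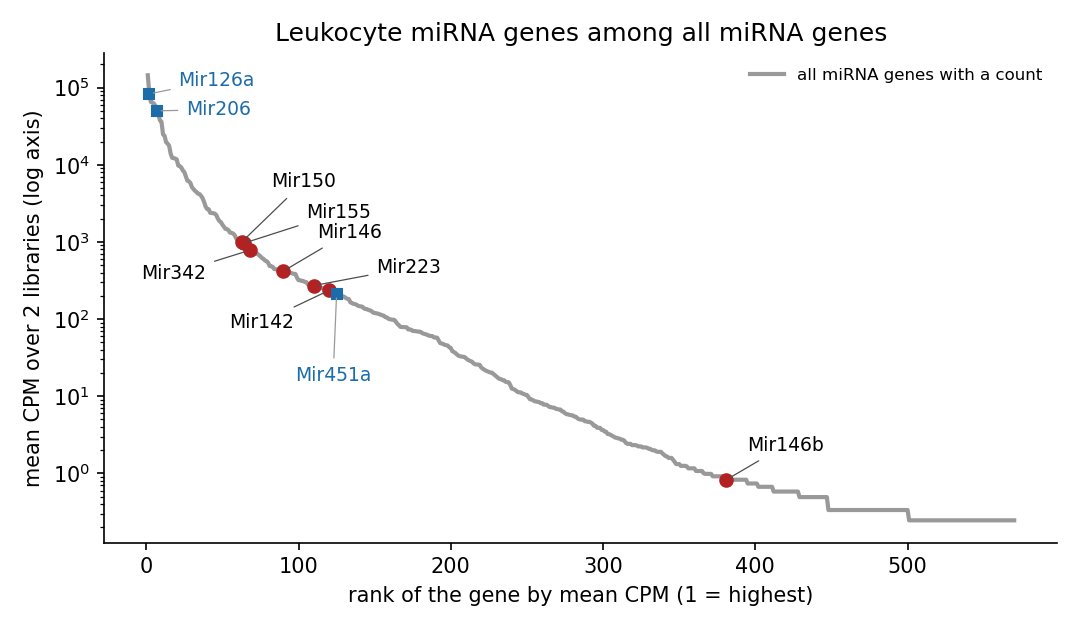
Mean CPM over the 2 libraries (log axis) against the rank of each miRNA gene with at least 1 count (grey line). Red points are the leukocyte genes, which sit between ranks 63 and 120 except Mir146b at rank 381; blue squares mark the endothelial Mir126a, the muscle Mir206 and the red blood cell Mir451a. Mir142b had no counts and is not drawn.

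Among the lymphocyte-linked genes, Mir150 was the most abundant by mean level. It had 1758 counts in replicate 1 and 1711 in replicate 2, or 1179 CPM (interval 1124 to 1235) and 844 CPM (804 to 884). The level was lower in replicate 2, with a log2 ratio of replicate 2 over replicate 1 of -0.47 (interval -0.57 to -0.38, exact binomial test adjusted p = 5.60e-21). The counts themselves were close, and the levels differ because replicate 2 had the greater total.

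Mir342, the gene in the Evl intron, had 1423 and 1230 counts. That is 954 CPM (905 to 1005) in replicate 1 and 606 CPM (573 to 641) in replicate 2, so that it was lower in replicate 2 even in raw counts. Its log2 ratio of -0.64 (-0.75 to -0.53, exact binomial test adjusted p = 2.09e-29) was the lowest of the 6 tested leukocyte genes. Of 51 other genes with summed counts between 846 and 3469, the range of the tested leukocyte genes, 0 had a lower ratio. That set was chosen after the values were seen. Some genes with fewer counts had lower ratios, down to -2.09 among all genes tested. The log2 ratio of Mir150 over Mir342 in counts was 0.30 in replicate 1 and 0.48 in replicate 2.

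Mir155, the gene induced on immune activation, had 1581 and 1750 counts. Its level was 1060 CPM (1009 to 1114) in replicate 1 and 863 CPM (823 to 904) in replicate 2. At -0.29 (-0.39 to -0.19, exact binomial test adjusted p = 5.59e-08) its log2 ratio was the smallest in size among the tested leukocyte genes. Levels of Mir150 and Mir155 overlapped between the libraries, and the gene with more counts was Mir150 in replicate 1 and Mir155 in replicate 2.

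The miR-146 genes, whose products miR-146a-5p and miR-146b-5p share a seed, were far apart in counts. Mir146 had 747 and 682 counts, or 501 CPM (466 to 538) and 336 CPM (311 to 362). It was lower in replicate 2, with a log2 ratio of -0.56 (-0.72 to -0.41, exact binomial test adjusted p = 9.75e-13). Mir146b had 1 and 2 counts, or 0.671 CPM (0.0170 to 3.74) and 0.986 CPM (0.119 to 3.56), too few for the test. Counts of Mir146 exceeded those of Mir146b 747-fold in replicate 1 (134 to 29544) and 341-fold in replicate 2 (94.0 to 2821). The hairpins share a stretch of 20 bases, and how reads with mismatches between the 2 mature sequences were placed is not given in the sources used here.

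The myeloid gene Mir223 and the general blood cell gene Mir142 were the lowest of the detected genes, and both were higher in replicate 2. Mir223 had 336 and 645 counts, or 225 CPM (202 to 251) and 318 CPM (294 to 344). Its log2 ratio was 0.51 (0.32 to 0.70, exact binomial test adjusted p = 5.34e-07). Mir142 had 299 and 547 counts, or 200.5 CPM (178 to 225) and 270 CPM (248 to 293). For it the log2 ratio was 0.44 (0.23 to 0.65, exact binomial test adjusted p = 8.30e-05). Counts of Mir223 stood at 1.12 times those of Mir142 in replicate 1 (0.959 to 1.32) and at 1.18 times in replicate 2 (1.05 to 1.32), intervals that overlap.

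**Figure D2:**
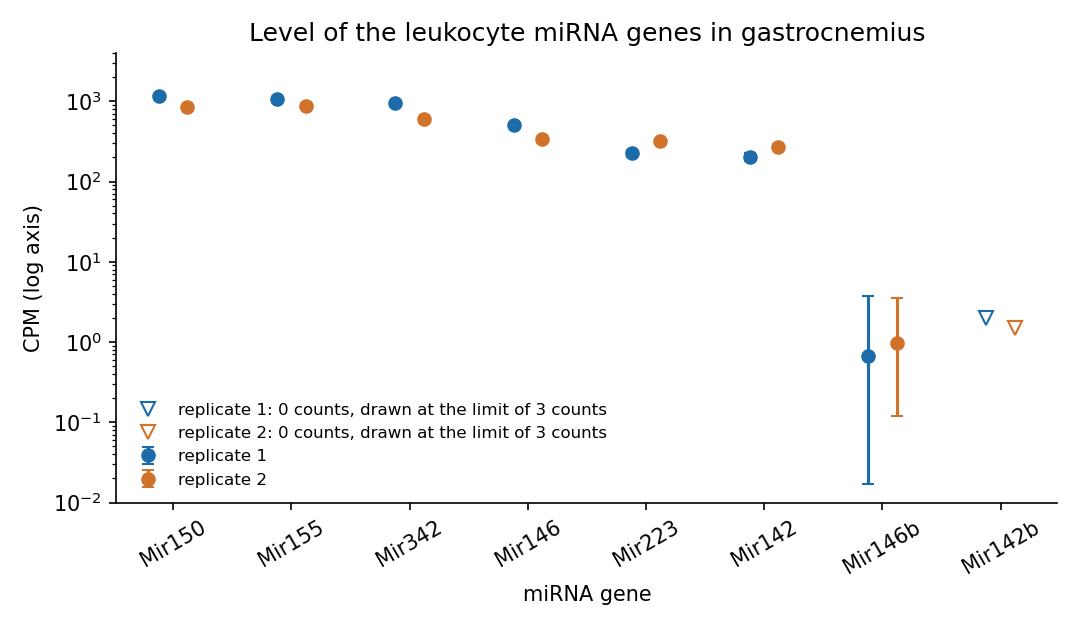
CPM (log axis) of each of the 8 genes in replicate 1 (blue) and replicate 2 (orange), with exact 95% counting intervals; triangles mark 0 counts and stand at the limit of 3 counts. Mir150, Mir155, Mir342 and Mir146 are higher in replicate 1, Mir223 and Mir142 in replicate 2, and Mir146b and Mir142b lie at or under about 1 CPM or their limit.

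By mean CPM the order was Mir150, Mir155, Mir342, Mir146, Mir223, Mir142, Mir146b and Mir142b. Between neighbours, the values of the 2 libraries did not overlap for Mir342 over Mir146, for Mir146 over Mir223 and for Mir142 over Mir146b. Mir146b and Mir142b, with 2 counts or fewer in either library, cannot be ordered. Their counting intervals overlapped, at 0.0170 to 3.74 CPM and 0 to 2.47 CPM in replicate 1. They overlapped for Mir150 and Mir155, for Mir155 and Mir342, and for Mir223 and Mir142. Annotated hairpins differ in length, from 64 bases for Mir142 to 115 for Mir142b. Per base of hairpin, the mean levels were 15.6 CPM for Mir150, 14.8 for Mir155, 7.88 for Mir342 and 6.44 for Mir146. On that scale Mir142, at 3.67 CPM per base, stood above Mir223 at 2.47. A read of a miRNA covers the mature sequence and not the hairpin, so the undivided CPM was kept as the level.

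All reads at the Mir142 locus ran on the strand of Mir142. Its own strand held 299 and 547 counts and the opposite strand 0 in both libraries. Mir142b held the reverse, with 0 counts on its own strand and 299 and 547 on the opposite one. Against a limit of 3 counts for Mir142b, the count of Mir142 was 99.7 times as high in replicate 1 and 182 times in replicate 2. These ratios leave out the counting error of Mir142. The share of reads on the Mir142 strand was 100% in both, with lower limits of 98.8% and 99.3%. When strand was disregarded both genes stood at 0, because a read in the overlap then belongs to either gene and is left unassigned. The other 6 genes had 0 counts on the opposite strand in both libraries, and the same counts with and without regard to strand.

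**Figure D3:**
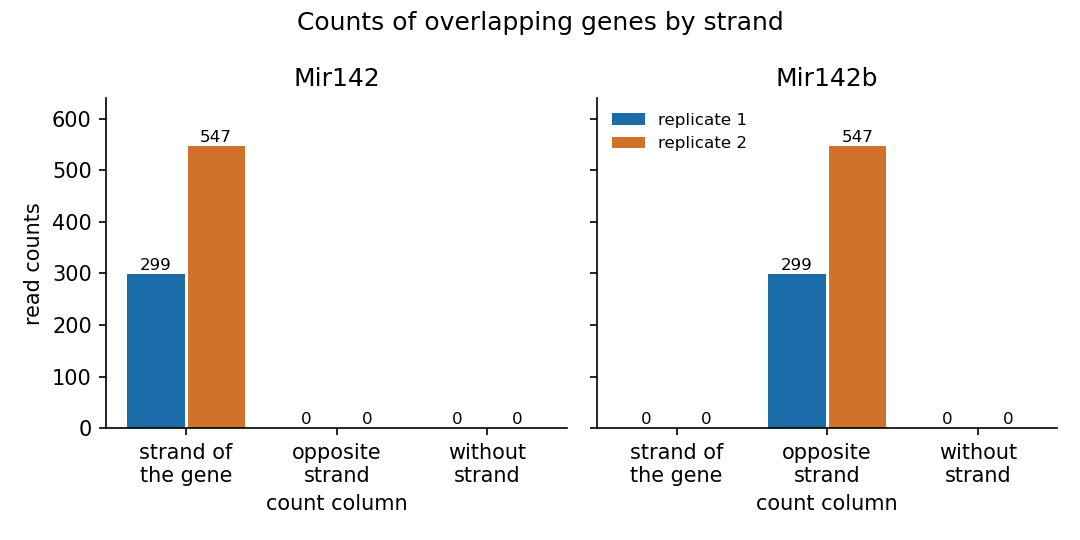
Read counts of Mir142 (left) and Mir142b (right) in replicate 1 (blue) and replicate 2 (orange) for each of the 3 count columns. The 299 and 547 reads of the locus appear on the strand of Mir142 and as opposite-strand reads of Mir142b, and in neither gene without strand.

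Between the libraries, all 6 tested leukocyte genes passed the threshold (adjusted p under 0.05): Mir142 and Mir223 were higher in replicate 2, and Mir150, Mir155, Mir146 and Mir342 were lower. Among all 313 genes with at least 10 summed counts, 38.3% passed, 19.8% as higher and 18.5% as lower. Genes with more counts pass more often, and of the 51 other genes in the same range of summed counts, 30 passed, or 58.8%, with 29.4% higher and 29.4% lower. The median log2 ratio of the tested leukocyte genes was -0.38, with a range from -0.64 to 0.51, beside a median of 0.05 over all genes tested. Their median ratio without regard to sign was 0.49, against 0.22 for the 51 genes of like depth. Of those 51, 4 had a higher ratio than Mir223.

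This test weighs the difference between 2 libraries against counting error alone. In edgeR's exact negative binomial test, which adds the spread between the same libraries, 0 of 313 genes passed, the 6 leukocyte genes included, and an unadjusted p under 0.05 was found for 15 genes. None of these 15 was a leukocyte gene: the lowest unadjusted p among those was 0.0862, for Mir342, with an adjusted p of 0.986. The spread in this test was taken from the very difference under test, so few genes could pass. That none did is no evidence that the libraries are alike.

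**Figure D4:**
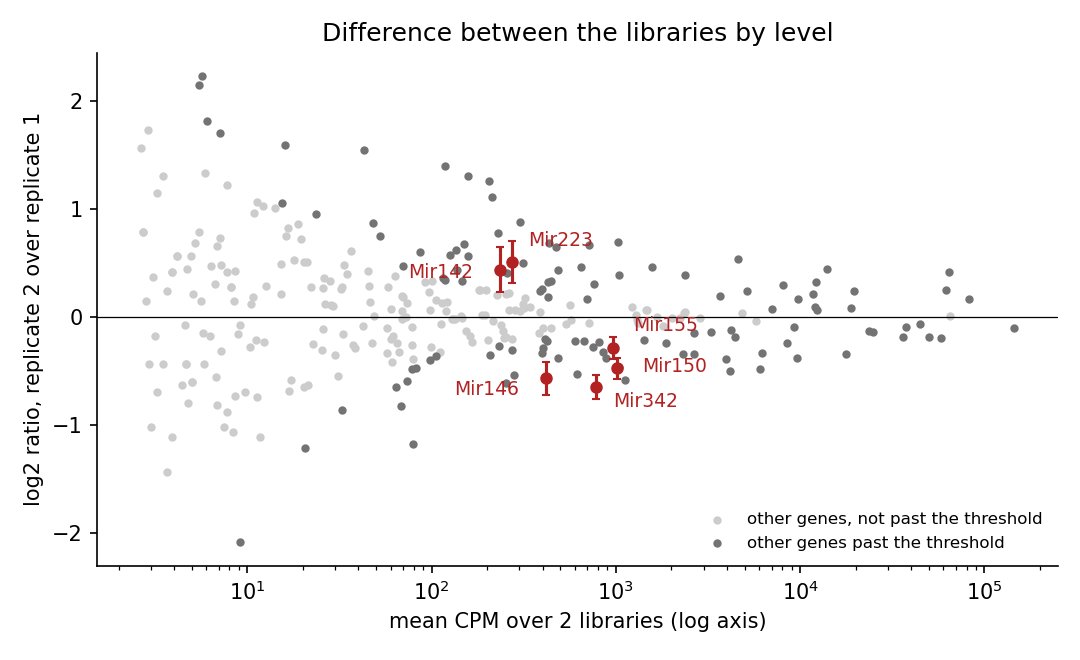
Log2 ratio of replicate 2 over replicate 1 against mean CPM (log axis) for the 313 tested genes. Dark grey points passed the binomial test and light grey points did not; the 6 leukocyte genes are red with exact 95% intervals. Mir223 and Mir142 lie above 0 and the other 4 below it.

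The makeup of the leukocyte counts differed between the libraries, a comparison that needs no scaling of depth. Mir223 made up 5.47% of the counts of the 8 genes in replicate 1 (interval 4.91 to 6.07) and 9.82% in replicate 2 (9.11 to 10.6). Mir142 made up 4.87% (4.34 to 5.43) and 8.33% (7.67 to 9.02). Mir342 held 23.2% (22.1 to 24.2) and 18.7% (17.8 to 19.7), and Mir146 12.2% (11.3 to 13.0) and 10.4% (9.66 to 11.1). The intervals of each of these 4 genes did not overlap between the libraries, whereas those of Mir155, at 25.7% (24.6 to 26.8) and 26.6% (25.6 to 27.7), did. Mir150 held 28.6% (27.5 to 29.8) and 26.1% (25.0 to 27.1), intervals that did not overlap either. Set against each other directly, counts of Mir223 were 0.191 times those of Mir150 in replicate 1 (0.170 to 0.215) and 0.377 times in replicate 2 (0.344 to 0.413). For Mir142 over Mir342 the ratio was 0.210 (0.185 to 0.238) and 0.445 (0.401 to 0.492). How often such intervals part for other genes was not computed, so the genes whose intervals parted have no background to be read against. By the binomial test, a different measure, 58.8% of the 51 other genes of like depth passed. All shares are parts of the same sum. A rise in some lowers others, so they are not separate results. With 1 library on each side, no spread stands behind these differences in makeup other than counting error.

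**Figure D5:**
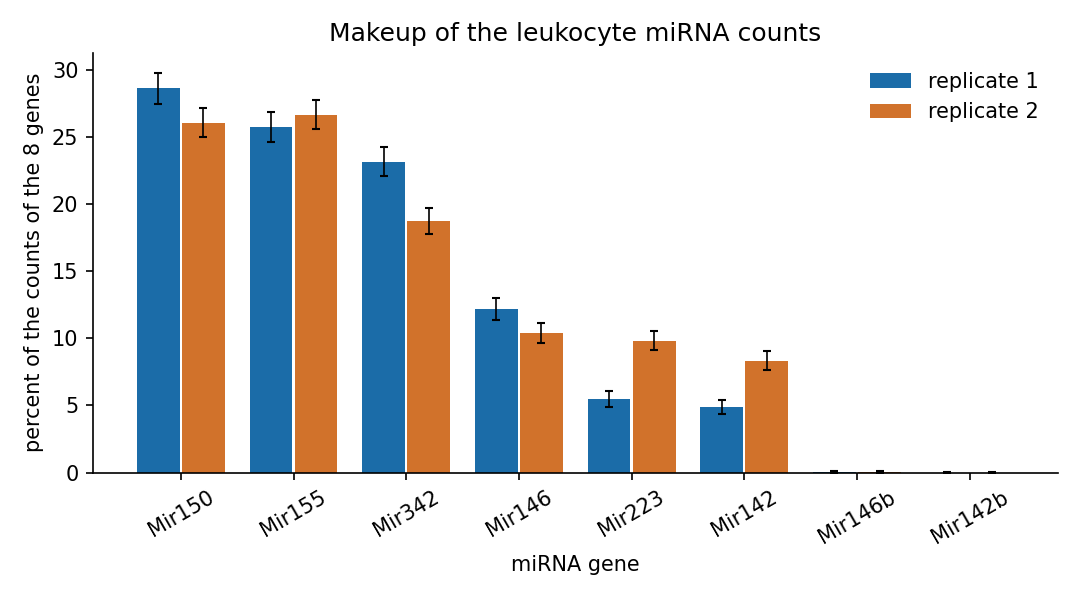
Share of the summed counts of the 8 genes held by each gene, in percent, in replicate 1 (blue) and replicate 2 (orange), with exact 95% intervals. The shares of Mir223 and Mir142 are higher in replicate 2, at 9.82% and 8.33%, and those of Mir342 and Mir146 lower.

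Red blood cell genes also differed between the libraries. Mir451a, from the red cell transcript that also holds Mir144, had 201 and 587 counts, and its log2 ratio of 1.11 exceeded those of Mir223 and Mir142. For Mir144, with 59 and 134 counts, the ratio was 0.75, while for Mir486, which muscle also makes, it was -0.27 with 1227 and 1372 counts. The list of these 3 genes held 0.0997% of gene counts in replicate 1 and 0.103% in replicate 2. Most of these counts were of Mir486, so the near-equal shares do not reflect Mir451a and Mir144. None was at 0, and 2 genes were higher in replicate 2 and 1 lower. Over all 313 genes tested, 19.8% passed as higher and 18.5% as lower. The part of the red blood cell genes in the higher Mir223 and Mir142 was not tested. Per count of Mir451a there were 1.67 counts of Mir223 in replicate 1 (1.40 to 2.00) and 1.10 in replicate 2 (0.981 to 1.23). Per count of Mir451a there were 8.75 counts of Mir150 (7.55 to 10.2) and 2.91 (2.65 to 3.21).

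Of 18 further miRNA genes linked to leukocytes, 17 had counts, and Mir147, which macrophages induce, had 0 in both libraries. Over all 313 genes tested, 38.3% passed, 19.8% as higher and 18.5% as lower. These shares stand beside this list and the endothelial, smooth muscle and striated muscle lists below. Of the 16 leukocyte-linked genes tested, 3 were higher in replicate 2 (Mir21a, Mir181c and Mir181d). Another 4 were lower (Mir99b, Mirlet7e, Mir125a and Mir181b-2), and 9 did not pass. All that passed were named after their values were seen. The median log2 ratio of the 16 was 0.20. The 18 genes held 2.50 ± 0.0408% of gene counts (SD, n = 2). They were led by Mir21a at 11739 ± 1194 CPM, Mir99b at 4170 ± 1039 CPM and Mirlet7e at 2651 ± 460 CPM, genes that many other cell types also make. Mir511, in the macrophage receptor gene Mrc1, was named after its values were seen: its 65 and 83 counts gave a log2 ratio of -0.08 (-0.57 to 0.41), which did not pass (exact binomial test adjusted p = 0.840). The endothelial and smooth muscle genes that passed were all higher in replicate 2: Mir126a by 0.17 on the log2 scale, Mir143 by 0.42 and Mir145a by 0.54. Each had 5610 counts or more in either library, and genes with more counts pass more often. Of the 8 striated muscle genes tested, Mir208b (log2 ratio 1.31, named after its values were seen) and Mir499 (0.69) were higher in replicate 2, Mir206 (-0.19) and Mir1a-2 (-0.20) were lower and 4 did not pass. The ratio of Mir208b thus exceeded that of Mir451a, and the muscle list as a whole held 5.43% and 4.77% of gene counts. Most of that share was Mir206, at 53367 CPM in replicate 1 and 46543 CPM in replicate 2. Reads with multiple placements are missing from the share, and how many of them came from muscle genes was not tested. The share therefore does not measure the part of muscle in the samples. Whether vessels, blood or muscle fibres in the samples bear on the leukocyte values was not tested.

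With 2 libraries, the pattern of a gene is a single ratio, and likeness to it was taken as the smallest difference in log2 ratio among 173 other genes with at least 100 counts in both. For Mir150 the nearest were Mir421 and Mir668, within 0.0015 and 0.0037. For Mir155 they were Mir542 and Mir26a-1, within 0.0037 and 0.013. For Mir342 they were Mir224, within 0.0019, and Mirlet7a-1, within 0.035. These are nearest values in a dense distribution over 2 points and carry no test.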

How the data were processed

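Small RNA libraries from 2 gastrocnemius samples were used. The authors deposited raw read counts per miRNA gene on mm10 and GENCODE M21, per the file descriptions; aligner, mismatch settings and trimming: not given in the sources used here. Of the 3 count columns per file, whose values show reads without strand, sense reads and antisense reads, the sense column was used. Library sizes and tests exclude 4 summary rows. Genes received 19.9% and 20.6% of reads.

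Per gene, an exact two-sided binomial test (scipy 1.17.1) compared the libraries, with TMM library sizes (edgeR 4.0.16) and Benjamini-Hochberg adjustment over 313 genes with at least 10 summed counts. The step was tested on simulated data that held counting error only, which is what the test assumes. That check therefore says nothing about spread beyond counting error. A chi-square test over these genes (20979 on 312 degrees of freedom) showed more difference than sampling of a single library gives. Alternatives were DESeq2 1.42.0 size factors, total counts, no filter, counts without strand and a negative binomial test. The members and lists were chosen with earlier results of these data known. The rule named all 8 members, up to 3 genes per list by mean CPM, the 2 genes nearest in ratio to each of the 3 highest members, and the neighbours in level of the highest. Other names were chosen after their values were seen, as was the set of 51 genes of like depth.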

Additional observations from a re-analysis of the deposited data

How the results depend on the processing

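The calls and directions of the 6 tested leukocyte genes were the same with DESeq2 size factors, with total gene counts as library sizes and without the filter, and those of 5 of them without regard to strand, where Mir142 has no counts. Under the edgeR exact negative binomial test 0 of the 6 genes and 0 of all 313 genes passed, against 6 and 120 in the binomial test, since the spread is then estimated from the same 2 libraries. The share of the 8 genes in gene counts, 0.368%, was 0.461% without regard to strand, where the total is smaller, and 0.0744% of all reads; leaving out each library in turn gave 0.324% to 0.412%. The level order changed for 2 genes per base of hairpin (Mir142 and Mir223) and for 2 in replicate 2 alone (Mir150 and Mir155). No scaling moved the median of all genes by over 0.1 on the log2 scale. Leaving out a library leaves no ratio, so the ratios have no such check. Depth limits Mir146b and Mir142b, with 3 counts or fewer in all. No paired analysis was possible because there is 1 group.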

Other observations

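Mir142b was not alone in having no reads. Of 32 pairs of annotated miRNA genes that overlap on opposite strands, 22 had at least 10 counts in each library, and the lesser gene had 0 counts in both libraries in 14 of them. In 20 of the 22 it held under 1% of the reads of the pair in both. The exceptions, named after their values were seen, were Mir3107 opposite Mir486, with 43 and 25 counts (3.39% and 1.79%), and Mir3074-1 opposite Mir24-1, with 8 counts in each library (17.4% and 12.5%).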
